A study of Mus musculus with 6 samples.

Results

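Retnla, Retnlb, Retnlg, Retn, Chil3, Arg1 and Fcna were described across 6 mouse hearts. These 7 genes were chosen by name, as the resistin family and secreted or enzymatic genes of alternatively activated macrophages, and with their difference between the groups already known. They are 7 of the 27307 gene symbols on the array and are read by 8 of its 56605 probes, 1 probe each except Retn, which has 2. All hearts came from male C57BL/6J Clk4-cKO mice, in which Clk4 fl/fl was deleted by α-MHC-MerCreMer, a tamoxifen-inducible Cre recombinase driven by a cardiomyocyte promoter. The control group (NEXN-WT, 3 hearts) had received an adeno-associated virus (AAV9) that carries wild-type mouse Nexn under the ubiquitous CMV promoter. The other group (NEXN-S437E, 3 hearts) had received the same vector with Nexn S437E, in which glutamate replaces a serine to mimic its phosphorylation by the kinase CLK4. NEXN (nexilin) is an actin-binding protein of the cardiomyocyte Z-disc. The comparison addressed which transcripts differ in CLK4-deficient hearts when the nexilin supplied mimics the phosphorylated form. Hearts without a vector or with intact Clk4 were not analysed here. By the study's methods the vector and tamoxifen were given when the mice were a few weeks old.

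The resistin-like molecules are small secreted proteins rich in cysteine. Retnla encodes RELMα, which macrophages make in quantity when interleukin-4 or interleukin-13 activates the transcription factor STAT6. That state is called alternative activation, and Chil3 (the chitinase-like lectin Ym1) and Arg1 (the arginase that turns arginine into ornithine) are its other classical mouse markers. Fcna encodes ficolin A, a secreted lectin that starts the lectin pathway of complement and is made by tissue macrophages. Of the remaining family members, mouse Retn (resistin) is best known from fat cells, Retnlb from the intestinal epithelium and Retnlg from bone marrow and neutrophils.

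RNA of each heart was hybridised to 1 Agilent array with 1 dye. All 6 arrays lay on 1 slide and were read in 1 scan, with 41.9% to 47.8% of spots well above background and none saturated. Levels are given as log2 signal relative to the 75th percentile of the same array, taken over the 21110 probes that were well above background on all 6 arrays. Undetected probes mostly lay at the lower end of this scale. The Clk4 probe above background on all 6 arrays differed by 0.05 (log2, SE 0.18, limma adjusted p = 0.895), and the 2 Nexn probes by -0.06 and 0.06 (adjusted p = 0.915 and 0.903). Neither gene was called, in groups that share the deletion and both carry a Nexn vector. NEXN-WT replicate 1 stood apart from the other arrays, with a mean absolute log2 difference of 0.372 and 0.429 to its own group against 0.19 to 0.321 among the other 5. The slide is also unbalanced: row 1 held every NEXN-WT array together with NEXN-S437E replicate 1, and row 2 held NEXN-S437E replicates 2 and 3.

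Retnla and Fcna were both higher in the NEXN-S437E hearts, on all 3 arrays, than on any NEXN-WT array. Retnla differed by 6.59-fold. Fcna, which was well above background on 2 of the 3 control arrays, differed by 4.08-fold (log2 difference 2.03), a size that depended on the background correction (0.89 with normexp). They were the only 2 of the 7 genes that could be compared, since the other 5 were not well above background on all 3 arrays of either group. Fcna passed this filter through the NEXN-S437E group alone, the group in which it was higher. Chil3 was near background with overlapping groups, and Retnlb, Retnlg, Retn and Arg1 passed the background criterion on no array. Because the genes were chosen with this contrast known, their differences are given as a description, without a test.

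**Figure D1:**
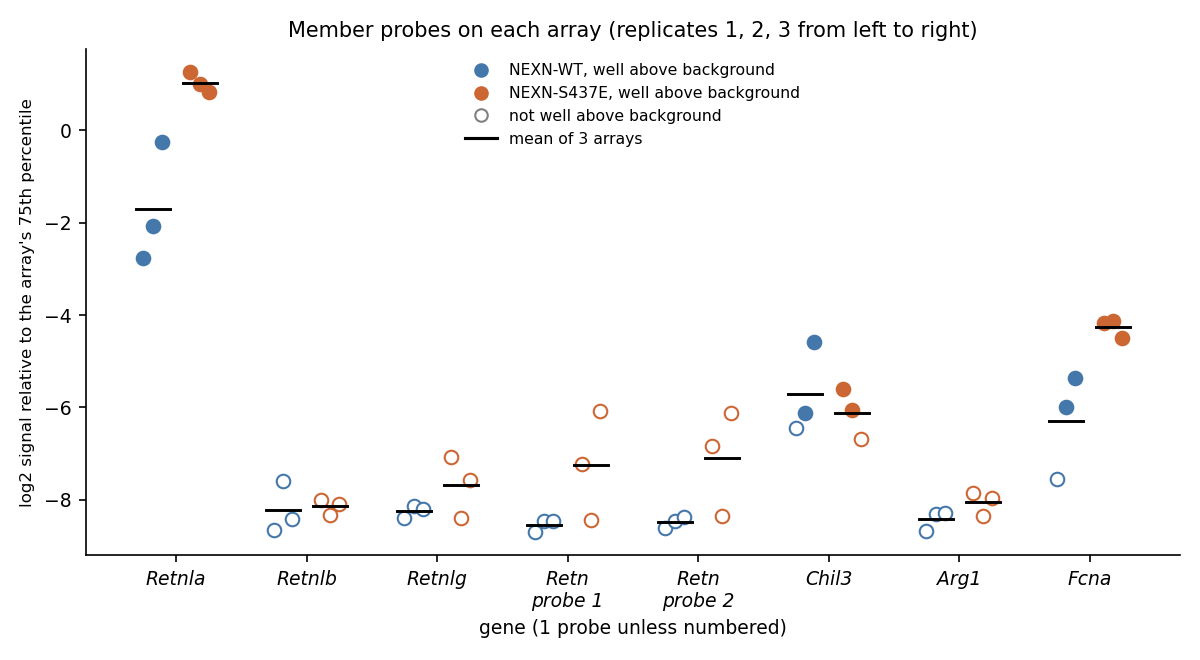
Log2 signal relative to the array's 75th percentile (vertical axis) for each of the 8 member probes (horizontal axis) on the 3 NEXN-WT arrays (blue) and the 3 NEXN-S437E arrays (orange). Open circles are values not well above background and lines are means of 3 arrays. Retnla and Fcna separate the groups, Chil3 overlaps, and the other 5 probes have open circles on all 6 arrays.

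Retnla was read by probe A_51_P257951 (mm9 chr16:48844447-48844506, plus strand), which was well above background on all 6 arrays. Its level was -2.77, -2.07 and -0.25 in NEXN-WT replicates 1, 2 and 3 and 1.25, 1.00 and 0.83 in NEXN-S437E replicates 1, 2 and 3. The spread was wide in the controls and narrow in the treated hearts. The NEXN-WT arrays spanned 2.51 on the log2 scale (5.71-fold) and the NEXN-S437E arrays 0.42. The highest control still lay 1.08 below the lowest treated heart. The group means were -1.69 ± 1.3 and 1.03 ± 0.21 (SD, n = 3 each), a difference of 2.72 (SE 0.57). Processed signals before scaling were 224, 250 and 794 in NEXN-WT and 1640, 1990 and 1560 in NEXN-S437E, so that the 2 groups did not overlap on that scale either. By the size of the increase Retnla ranked 4 of 22998 tested probes. Its mean level stood at the percentile 58 of tested probes in NEXN-WT hearts and 85.2 in NEXN-S437E hearts. The spread within NEXN-WT was itself unusual, since its SD exceeded that of 99.6% of tested probes.

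Fcna was read by probe A_51_P137604 (mm9 chr2:25480749-25480808, minus strand). The probe, printed because it carries the only Fcna measurement, has 1 reading frame without a stop codon in its 60 bases:
Fcna probe: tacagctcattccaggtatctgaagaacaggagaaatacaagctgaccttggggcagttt
Its level was -7.54, -5.99 and -5.37 in NEXN-WT replicates 1, 2 and 3 and -4.18, -4.13 and -4.49 in NEXN-S437E replicates 1, 2 and 3. The groups did not overlap and were separated by 0.88. The means were -6.30 ± 1.12 and -4.27 ± 0.19 (SD, n = 3 each), a difference of 2.03 (SE 0.50). NEXN-WT replicate 1 was not well above background, so 2 of the 3 control arrays and all 3 treated arrays measured the transcript. Fcna was a dim probe, with processed signals of 8.17, 16.5 and 22.9 against 38.1, 56.7 and 39.0.

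As a background for these counts, 0.530% of the 22998 tested probes (122) were called higher in NEXN-S437E and 2.03% (468) were called lower, 2.57% in either direction. A call here is at least a 2-fold difference with an unadjusted limma p under 0.05, the thresholds that the study used. All 3 NEXN-S437E arrays lay above all 3 NEXN-WT arrays at 14.4% of tested probes. Retnla and Fcna met both descriptions, which is what their choice already fixed. Neither was among the 34 probes (0.148%) with a Benjamini-Hochberg adjusted p under 0.05.

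**Figure D2:**
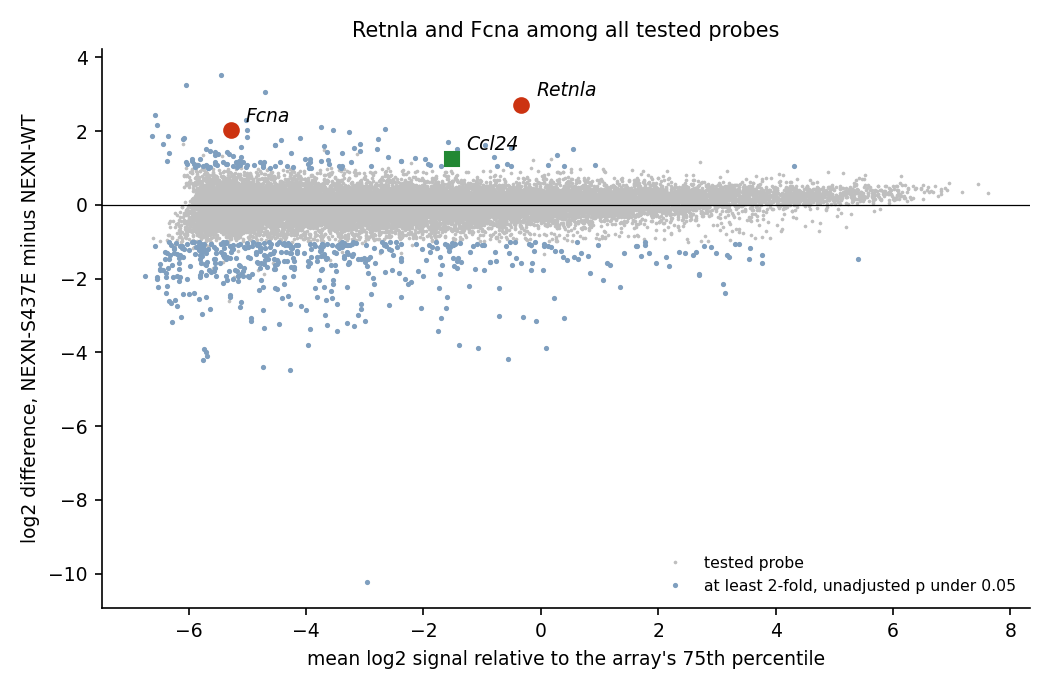
Log2 difference between NEXN-S437E and NEXN-WT (vertical axis) against the mean level over 6 arrays (horizontal axis, log2 relative to the array's 75th percentile) for the 22998 tested probes. Blue points are the 590 called probes, red circles are Retnla (2.72) and Fcna (2.03), and the green square is Ccl24 (1.25).

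The array that read lowest for Retnla within NEXN-WT, replicate 1, also read lowest for Fcna and Chil3, and replicate 3 read highest for all 3 genes. Replicate 1 was lowest and replicate 3 highest of the NEXN-WT arrays at 22.3% of all tested probes. Without NEXN-WT replicate 1 the difference was 2.19 (SE 0.50) for Retnla and 1.41 (SE 0.22) for Fcna. Without NEXN-WT replicate 3 it was 3.44 for Retnla and 2.5 for Fcna. Within slide row 1 the single NEXN-S437E array exceeded the mean of the 3 NEXN-WT arrays by 2.94 for Retnla and 2.11 for Fcna. That row holds 1 treated heart, and a fit with the slide row as a block likewise rests on that heart for the group difference. The part of the slide row in these differences was not tested.

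**Figure D3:**
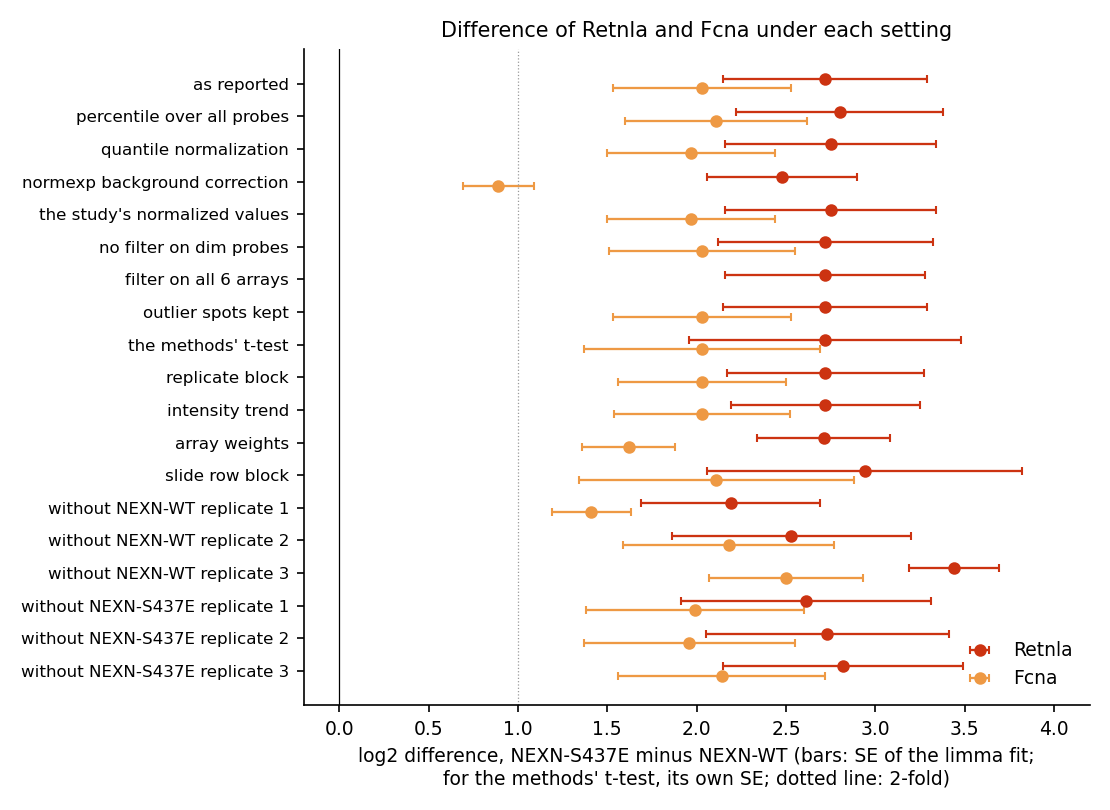
Log2 difference of Retnla (red) and Fcna (orange) between NEXN-S437E and NEXN-WT (horizontal axis) as reported and under each processing alternative (vertical axis). Bars are standard errors. Retnla stays between 2.19 and 3.44, and Fcna between 0.89 and 2.5 where it was measured.

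Chil3 (probe A_51_P167292, mm9 chr3:105950485-105950544, minus strand) did not follow Retnla. Its level was -6.45, -6.12 and -4.58 in NEXN-WT and -5.61, -6.06 and -6.69 in NEXN-S437E hearts. The groups overlapped, with the highest value on NEXN-WT replicate 3 and the lowest on NEXN-S437E replicate 3. It was well above background on 2 arrays of each group and was not tested. The means were -5.71 ± 1.00 and -6.12 ± 0.54 (SD, n = 3 each).

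The Arg1 probe did not rise above background on any array. Its level was -8.67, -8.30 and -8.29 in NEXN-WT and -7.86, -8.34 and -7.95 in NEXN-S437E hearts, all of them values that the extraction software had set in place of a signal too low to report. Retnlb stood at -8.66, -7.60 and -8.42 against -8.00, -8.33 and -8.09. Retnlg stood at -8.40, -8.14 and -8.20 against -7.08, -8.40 and -7.56. For these genes the arrays set no level and no direction.

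Retn was read by 2 probes, neither of them well above background in any heart. The first, A_55_P1984806, gave -8.70, -8.45 and -8.46 in NEXN-WT and -7.22, -8.44 and -6.08 in NEXN-S437E hearts. The second, A_55_P2428514, gave -8.60, -8.45 and -8.37 against -6.83, -8.34 and -6.13. Both probes read highest on NEXN-S437E replicate 3 and next highest on replicate 1, below the detection limit. On the NEXN-WT arrays and on NEXN-S437E replicate 2 both held values set by the extraction software, as for Arg1. Adipoq, the fat cell hormone adiponectin, was well above background on NEXN-S437E replicate 3 alone, with a level of -5.22 there against -7.30 to -6.32 on the other 5 arrays. Of the 8 adipocyte markers 4 read highest on that array, Adipoq, Cfd (-4.25), Cidec (-5.05) and Car3 (-4.91), and the other 4, Plin1, Plin4, Lep and Acvr1c, read highest on other arrays. In the list 2 markers passed the filter, Plin4 (0.44) and Lep (0.28), and neither was called. The part of fat cells in the Retn readings was not tested.

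Retnla, Retnlb and Retnlg lie side by side on chromosome 16, with no other protein-coding gene between them in RefSeq, and only Retnla was detected. A probe that also caught a neighbour's transcript would blur that reading. The probes were compared with one another only, which cannot show whether the Retnla probe matches another part of a neighbour's transcript. Matches of the probes to whole transcripts were not tested. Over their best ungapped overlap of 38 bases the Retnla and Retnlg probes had 22 identical bases (57.9%), and the Retnla and Retnlb probes had 16 of 34. The stretch of 30 bases in which the Retnla and Retnlg probes are most alike is shown with the 12 differing bases in capitals:
Retnla probe, bases 1 to 30: gaTgaAtCtaacaaaaAcTGCaGTcTCaAt
Retnlg probe, bases 23 to 52: gaAgaCtAtaacaaaaGcACAaTCcCAaCt
Of the 3 protein-coding genes on either side of the cluster, Dzip3 alone passed the filter, and it was not called (-0.51, SE 0.30, limma adjusted p = 0.413). Beside Fcna on chromosome 2, Rabl6 (0.22, SE 0.13, adjusted p = 0.425) and Tmem141 (0.59, SE 0.17, adjusted p = 0.184) passed the filter and were not called by limma.

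The RefSeq promoter table (GRCm38.p6) holds 5 of the 7 genes: Retnla, Retnlg, Retn, Chil3 and Fcna. The 250 bases before the start site are printed for Retnla and Fcna, which were both higher, and for Retnlg, the undetected neighbour. The motifs searched on both strands were the STAT6 palindrome (TTC and GAA separated by any 4 bases), TTGCNNAA (C/EBP), GAGGAAGT (PU.1) and TATAAA (the TATA box). They do not overlap one another, and matches are in capitals:
Retnla, chr16:48842359-48842608, plus strand: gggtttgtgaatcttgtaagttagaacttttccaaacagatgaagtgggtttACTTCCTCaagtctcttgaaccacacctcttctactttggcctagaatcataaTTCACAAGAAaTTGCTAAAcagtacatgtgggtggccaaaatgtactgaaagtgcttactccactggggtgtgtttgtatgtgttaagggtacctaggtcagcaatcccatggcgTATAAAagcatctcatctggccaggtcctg
Retnlg, chr16:48872358-48872607, plus strand: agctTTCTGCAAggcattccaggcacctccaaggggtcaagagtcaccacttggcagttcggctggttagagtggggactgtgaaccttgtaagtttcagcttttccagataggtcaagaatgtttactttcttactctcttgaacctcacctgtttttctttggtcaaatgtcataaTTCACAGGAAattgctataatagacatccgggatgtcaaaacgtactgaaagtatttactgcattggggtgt
Fcna, chr2:25627975-25628224, minus strand: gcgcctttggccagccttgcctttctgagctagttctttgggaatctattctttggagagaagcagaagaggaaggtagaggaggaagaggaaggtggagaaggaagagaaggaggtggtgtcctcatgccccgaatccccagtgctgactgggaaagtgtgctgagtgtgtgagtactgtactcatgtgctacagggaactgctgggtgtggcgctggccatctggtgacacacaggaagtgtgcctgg
Counted from the start site, with -1 the base before it, TTCACAAGAA begins at -145 in the Retnla promoter and TTGCTAAA at -134, with the PU.1 letters on the opposite strand at -198 and TATAAA at -30. Retnlg carries TTCACAGGAA at -72 and the C/EBP letters on the opposite strand at -246. The Retnla and Retnlg windows shared 65.2% of bases over their best ungapped overlap of 227 bases, an alignment in which both STAT6 palindromes fall at the same place. No other pair among the 5 promoters exceeded 38.6%. The Fcna window, read to 50 bases after the start, held none of the 4 motifs. Over all 32851 promoters in the table, 6.95% hold the STAT6 palindrome, 10.8% TTGCNNAA, 3.20% GAGGAAGT and 13.6% TATAAA. A match is a description of letters, and binding was not measured.

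Further genes of the alternative activation response differed in both directions. Of 20 such genes, 12 passed the filter, 1 was called higher, 2 were called lower and 9 were not called, beside 0.530% called higher and 2.03% called lower of all tested probes. The median difference was 0.06 (log2), beside 0.01 over all tested probes. Differences in bulk tissue cannot tell fewer cells of a type from less RNA per cell.

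Ccl24, the chemokine eotaxin-2 that draws eosinophils and is made by alternatively activated macrophages, was the gene called higher. Its level was -2.83, -2.0 and -1.61 in NEXN-WT and -1.03, -0.93 and -0.73 in NEXN-S437E hearts, without overlap. The difference was 1.25 (SE 0.30, limma adjusted p = 0.153). The call rested on NEXN-WT replicate 1, since the difference was 0.91 without that array. Egr2, a transcription factor that interleukin-4 induces in macrophages, was called lower by 1.99 on the log2 scale (-1.99, SE 0.55, adjusted p = 0.180 in limma). Its level was -0.46, -2.74 and -2.39 in NEXN-WT and -3.57, -4.00 and -4.00 in NEXN-S437E hearts, and the difference was -1.29 without NEXN-WT replicate 1. It was not called by the methods' t-test. With the slide row as a block, a fit that rests on NEXN-S437E replicate 1 alone, its difference was -1.70. Socs1, an inhibitor of cytokine signalling, was also called lower (-1.03, SE 0.23, limma adjusted p = 0.149), from -2.71, -2.79 and -3.0 to -4.36, -3.74 and -3.48, and its difference was under 2-fold without NEXN-WT replicate 1 (-0.96) or without NEXN-S437E replicate 1 (-0.78). Mrc1, the mannose receptor CD206 and a further gene of this list, read 0.00, -0.73 and -0.32 against -0.36, -0.48 and -0.27. Its groups overlapped, with a difference of -0.02 (SE 0.20, limma adjusted p = 0.960).

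**Figure D4:**
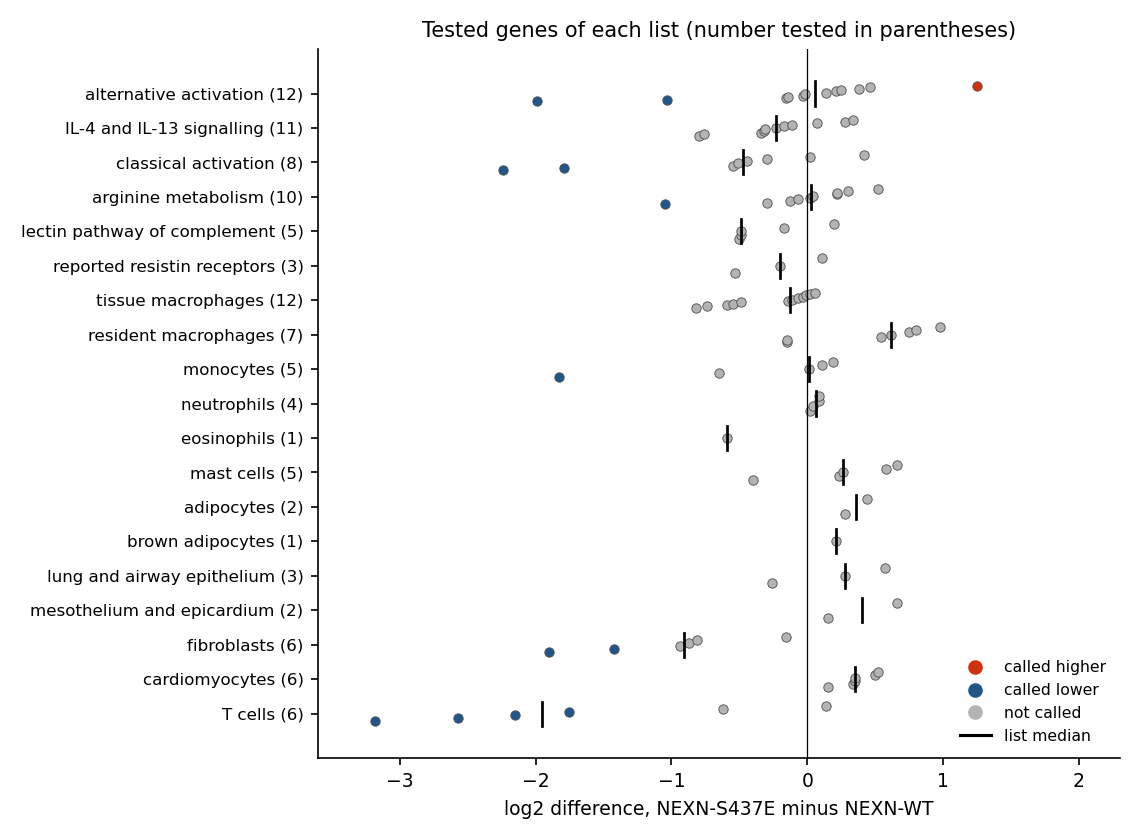
Log2 difference between NEXN-S437E and NEXN-WT (horizontal axis) of each tested gene in the gene lists and cell type marker lists (vertical axis, number tested in parentheses). Red points were called higher, blue points lower and grey points not called, and vertical bars are list medians. Ccl24 (1.25) is the single gene called higher, and the resident macrophage list has a median of 0.62.

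The cytokine pathway upstream of Retnla gave no call at the thresholds used. Of 16 genes of interleukin-4 and interleukin-13 signalling 11 passed the filter, none was called, and the median difference was -0.23. At an unadjusted limma p under 0.05 without the fold threshold, 0 of the 11 were higher and 3 were lower, beside 7.84% and 8.57% of all tested probes. All 3 NEXN-S437E arrays lay below all 3 NEXN-WT arrays for 5 of the 11, beside 12.4% of all tested probes. Il33 was called lower without NEXN-WT replicate 2 (-1.01). Il10ra differed by -1.02 with the slide row as a block, a fit that rests on NEXN-S437E replicate 1 alone. Il4 and Il13, the cytokines themselves, were below that criterion on all 6 arrays. Il4ra, the receptor chain that both cytokines share, differed by -0.34 (SE 0.20, adjusted p = 0.420 in limma), and the 2 tested Il4ra probes differed in sign. Stat6 read -1.03, -1.22 and -1.25 in NEXN-WT and -1.45, -1.31 and -1.43 in NEXN-S437E hearts, a difference of -0.23 (SE 0.13, limma adjusted p = 0.410).

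Among genes of the opposite, classical activation, Cxcl10 and Il1b were called lower. Of 12 genes 8 passed the filter, 0 were called higher and 2 lower, beside 0.530% and 2.03% of all tested probes, with a median of -0.48. Cxcl10, an interferon-induced chemokine, read -2.55, -2.51 and -1.47 in NEXN-WT and -4.60, -4.64 and -4.03 in NEXN-S437E hearts, a difference of -2.24 (SE 0.32, limma adjusted p = 0.0764) that was -1.28 with normexp background correction. Il1b, the inflammatory cytokine interleukin-1β, differed by -1.79 (SE 0.63, adjusted p = 0.241 in limma) and was well above background on 1 of the 3 NEXN-S437E arrays. Its call ended when NEXN-WT replicate 1 or 3 or NEXN-S437E replicate 1 or 2 was left out, with differences of -1.57, -1.76, -1.14 and -1.75, and the difference was -0.12 with normexp background correction. Nos2, which competes with arginase for arginine, differed by 0.02 (SE 0.20, limma adjusted p = 0.974).

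Genes that share a pathway or a fold with the members showed few differences. Of 14 genes of arginine metabolism 10 passed the filter, 0 were called higher and 1 lower, beside 0.530% and 2.03% of all tested probes. The call was Ass1, which makes arginine precursors from citrulline. It was lower by 1.05 on the log2 scale (-1.05, SE 0.25, limma adjusted p = 0.153), and -0.76 without NEXN-WT replicate 1. Slc7a1 was higher at an unadjusted limma p under 0.05 but was not called (0.52, SE 0.13, limma adjusted p = 0.166). Arg2, the mitochondrial arginase, was not detected above background on any of the arrays. None of 6 further chitinases and chitinase-like genes passed the filter, and Chil1 was well above background on NEXN-WT replicate 1 alone. Of 10 genes of the lectin pathway, in which ficolin A acts, 5 passed the filter and none was called, with a median of -0.49. Fcnb, the other mouse ficolin, was well above background on no array. Of the 3 reported resistin receptors Cap1, Tlr4 and Ror1, all tested, none was called.

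No general macrophage marker was called. All 12 tissue macrophage markers passed the filter, with a median difference of -0.13 and 10 negative differences. At an unadjusted limma p under 0.05 without the fold threshold 0 were higher and 2 were lower, beside 7.84% and 8.57% of all tested probes. The 2 were Fcgr1 (-0.82) and Cx3cr1 (-0.74), named after their values were seen. Their adjusted p in limma was 0.170 and 0.255, and without NEXN-WT replicate 2 both were called lower (-1.06 and -1.0). With the slide row as a block, a fit that rests on NEXN-S437E replicate 1 alone, Aif1 differed by -1.07. The summed linear level of the 12 markers was 38.5 to 52.9 in NEXN-WT and 42.5 to 45.8 in NEXN-S437E hearts, with overlap. Csf1r, the growth factor receptor of macrophages, read 2.86, 2.43 and 2.61 against 2.62, 2.62 and 2.64, a difference of -0.01 (SE 0.15, limma adjusted p = 0.974). C1qa, a complement subunit, differed by -0.14 (SE 0.13, adjusted p = 0.577 in limma) and Adgre1, a macrophage surface receptor, by -0.55 (SE 0.26, adjusted p = 0.339 in limma).

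Markers of resident cardiac macrophages, the self-renewing cells that carry LYVE1 and TIMD4, showed smaller differences, upward in 5 genes. Of 8 genes 7 passed the filter and none was called, but 5 were higher at an unadjusted limma p under 0.05 and 0 were lower, beside 7.84% and 8.57% of all tested probes. The median difference was 0.62. Their summed linear level was 13.2 to 14.9 in NEXN-WT and 17.7 to 19.4 in NEXN-S437E hearts, without overlap. A linear sum weights the brightest genes most, and much of its rise came from Cbr2. Cbr2 read 1.56, 2.43 and 2.61 (log2) in NEXN-WT and 3.19, 3.01 and 2.80 in NEXN-S437E hearts. The 5 genes are named here after their values were seen. The list itself was chosen with earlier results of these data known, so the share over all probes is a background and not a test.

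Lyve1, the hyaluronan receptor, read -1.47, -1.19 and -1.08 in NEXN-WT and -0.53, -0.50 and -0.46 in NEXN-S437E hearts, a difference of 0.75 (SE 0.15, limma adjusted p = 0.132). Timd4, a receptor for dying cells, read -5.11, -4.00 and -3.29 against -3.17, -3.11 and -3.17, a difference of 0.98 (SE 0.41, limma adjusted p = 0.294). Cbr2, a carbonyl reductase, differed by 0.80 (SE 0.28), Folr2, a folate receptor, by 0.62 (SE 0.23) and F13a1, a coagulation factor chain, by 0.54 (SE 0.19), with limma adjusted p of 0.239, 0.259 and 0.250. Without NEXN-WT replicate 1 the differences were 0.64 for Lyve1, 0.49 for Timd4, 0.48 for Cbr2, 0.40 for Folr2 and 0.45 for F13a1. Cd163 and Gas6 each differed by -0.15, and Vsig4 was not tested. The count of 5 depended on the arrays: it was 2 when NEXN-WT replicate 1 or 2 or NEXN-S437E replicate 1 or 3 was left out, 1 when NEXN-S437E replicate 2 was left out, and 5 when NEXN-WT replicate 3 was left out. It was also 1 by the methods' t-test and 4 without a filter on dim probes. With the slide row as a block, a fit that rests on NEXN-S437E replicate 1 alone, the list median was 0.69. Timd4 passed the 2-fold call with the percentile over all probes, quantile normalization and the study's normalized values (1.06 to 1.07), and Timd4 and Cbr2 did without NEXN-WT replicate 3 (1.4 and 1.01).

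**Figure D5:**
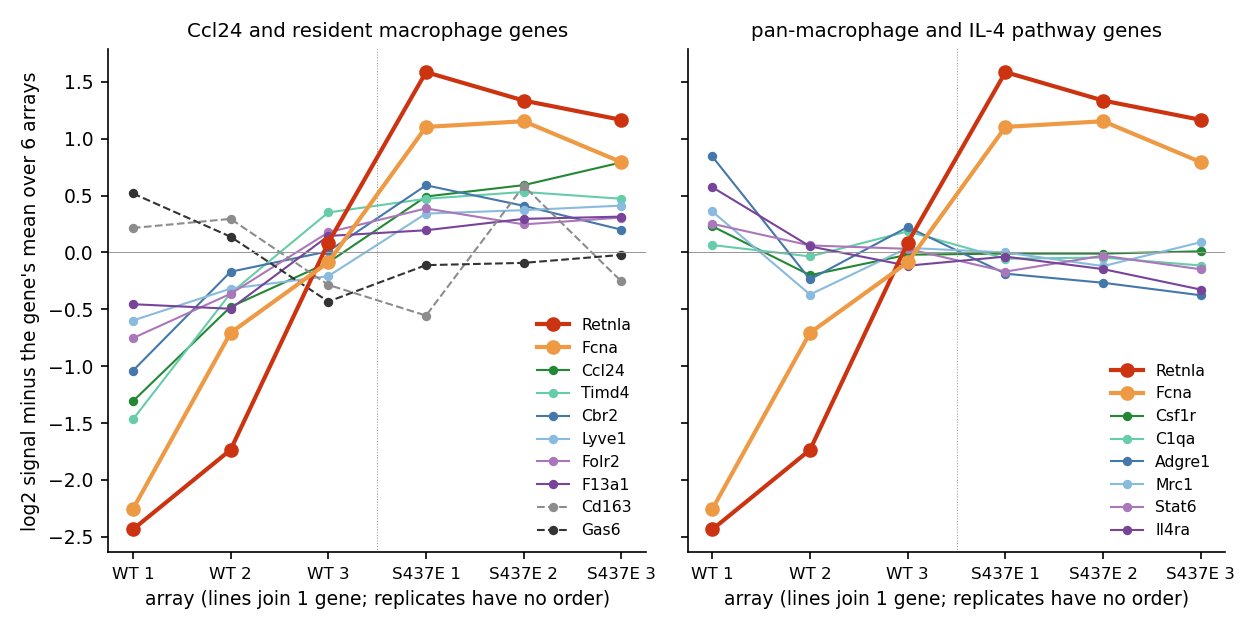
Log2 signal minus the gene's mean over 6 arrays (vertical axis) on each array (horizontal axis) for Retnla and Fcna (thick lines, both panels), for Ccl24 and the 7 tested resident macrophage genes (left), and for pan-macrophage and IL-4 pathway genes (right). On the left the NEXN-S437E arrays of Ccl24 and 5 resident macrophage genes lie above the NEXN-WT arrays over a smaller range than for Retnla and Fcna, while Cd163 and Gas6 (dashed) overlap. On the right the NEXN-S437E arrays of Stat6 and C1qa lie below the NEXN-WT arrays by a small distance, and the groups of Csf1r, Adgre1, Mrc1 and Il4ra overlap.

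Other cells that hold these transcripts were also looked for. Neutrophils are a source of Retnlg and Chil3. Of 11 neutrophil markers 4 passed the filter and none was called. With the slide row as a block, a fit that rests on NEXN-S437E replicate 1 alone, S100a8 differed by 1.79 and S100a9 by 1.75. S100a8 read -5.15, -4.89 and -4.71 in NEXN-WT and -3.12, -6.08 and -5.49 in NEXN-S437E hearts, highest on NEXN-S437E replicate 1, the one treated array in the slide row of the controls. Retnlg also read highest on that array, below the background criterion, and Chil3 on NEXN-WT replicate 3. The part of neutrophils in these readings was not tested. Of 8 eosinophil markers 1 passed the filter and was not called, and the defining genes Siglecf, Ccr3, Epx and Prg2 were well above background on none of the 6 arrays. The lung is a tissue where Retnla and Chil3 can be abundant. Of 8 lung and airway markers 3 passed the filter, Scgb3a2 (0.28), Cldn18 (0.57) and Ager (-0.26). Cldn18, a tight junction gene, was higher on all 3 NEXN-S437E arrays than on any NEXN-WT array but was not called (limma adjusted p = 0.185). The surfactant genes Sftpc, Sftpa1, Sftpb and Sftpd passed the background criterion on none of the 6 arrays. Of 5 tested monocyte markers Plac8 alone was called lower (-1.83, SE 0.21, limma adjusted p = 0.0360), beside 2.03% of all tested probes.

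Some T cell and fibroblast markers were called lower, beside 2.03% of all tested probes. Of 6 tested T cell markers 4 were called lower, namely Cd3g (-3.18), Lck (-2.15), Cd3d (-2.57) and Cd2 (-1.75), with limma adjusted p of 0.00116, 0.0124, 0.0269 and 0.0963. Cd3g was well above background on no NEXN-S437E array, a difference of at least 2.31-fold. With normexp background correction the list had 1 call in place of 4. Of 6 fibroblast markers 2 were called lower, Col1a1 (-1.90, SE 0.33, adjusted p = 0.105 in limma) and Col3a1 (-1.42, SE 0.25, adjusted p = 0.105 in limma), 4 were not called, and all 6 had negative differences. Without NEXN-WT replicate 2 the fibroblast list had 5 calls. All 6 cardiomyocyte markers had positive differences with a median of 0.35 and none called. Whether these differences bear on the levels of Retnla and Fcna was not tested. Mast cell, adipocyte, brown adipocyte, lung and mesothelial lists gave no call as reported. Msln, a mesothelial marker, was called higher without NEXN-S437E replicate 3 (1.06), the mast cell protease Mcpt4 without NEXN-WT replicate 3 (1.01), and Cidec without a filter on dim probes (1.73). Msln differed by 1.61 with the slide row as a block, a fit that rests on NEXN-S437E replicate 1 alone.

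The probes whose pattern over the 6 arrays was most like that of Retnla were found by the root mean square difference of profiles, each centred on its own mean. The 5 nearest with a gene symbol were Pla2g2c (0.38), Egfbp2 (0.50), Fcna (0.50), Ccl11 (0.51) and Klk1b26 (0.53), against a median of 1.57 over 22986 probes. Since Retnla and Fcna were both chosen as higher in NEXN-S437E, their likeness follows in part from the choice. Ccl11, the eosinophil chemokine eotaxin-1, read -6.81, -6.52 and -5.34 in NEXN-WT and -3.70, -2.86 and -2.96 in NEXN-S437E hearts. Egfbp2 and Klk1b26 are glandular kallikreins of one family, with similar sequences that a probe may not separate, reading -5.46 and -5.33 on NEXN-WT replicate 1. Pla2g2c, a secreted phospholipase, read -8.67, -8.33 and -5.85 against -5.57, -5.40 and -5.36. It was well above background on 1 of the 3 NEXN-WT arrays, as was Ccl11, so their distances and ranks rest in part on values below the background criterion.

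For Fcna the 5 nearest were Ubxn10 (0.20), Uckl1os (0.26), Prss55 (0.27), Efemp1 (0.31) and Lgi1 (0.33), with a median of 1.22. Retnla ranked 35 among the neighbours of Fcna. Efemp1, a matrix glycoprotein, read -6.49, -5.00 and -4.49 in NEXN-WT and -4.03, -3.55 and -3.57 in NEXN-S437E hearts. All 5 shared with Fcna the lowest level on NEXN-WT replicate 1. Of the 5, Ubxn10 alone was well above background on all 3 NEXN-WT arrays, and Uckl1os was so on none.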

How the data were processed

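Total RNA of 6 hearts (3 per group) was labelled with Cy3 and hybridised to Agilent 1-colour mouse expression arrays, 1 per animal. The authors extracted each array with Feature Extraction 10.7.1.1. The deposited intensities are processed signals, background-subtracted and detrended within each array and not normalized between arrays. The authors also deposited log2 values per probe whose 6 columns have nearly the same distribution. The normalization software is not given in the sources used here, and these values were an alternative. Columns of detection flags in words were not used.

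Control and outlier spots were left out, spots of a probe were averaged on the log2 scale, and each array's 75th percentile over the probes well above background on all 6 arrays was subtracted, since fewer than 50% of spots were detected. A probe was well above background if at least a share of 0.5 of its spots was. Tested were the 22998 probes, for 13747 genes, that passed this on every array of 1 group or of both, with limma 3.58.1 (lmFit, eBayes) in R 4.3.3. A call needed a 2-fold difference and an unadjusted p under 0.05. No covariate was used. The fit was tested on simulated data. Precision is limited by how few arrays there were and how dim a probe was. The smallest exact permutation p for 3 against 3 is 0.1, so none is given.

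The members and the 20 lists (7 of genes, 13 of cell type markers) were chosen with earlier results of these data known. Each listed gene was read by its tested probe of highest mean. Named were all member probes, Clk4 and Nexn, up to 4 called genes per direction and list with the smallest p, 16 context genes, and the 5 probes nearest in profile to Retnla and Fcna. Those 16 were Mrc1, Il4, Il13, Il4ra, Stat6, Adgre1, Csf1r, C1qa, Nos2, Adipoq, S100a8, Siglecf, Sftpc, Arg2, Fcnb and Chil1. Probe coordinates are on mm9, promoters are from RefSeq on GRCm38.p6, and no coordinate was converted. Gene order came from RefSeq (GRCm38.p6). Protein sequences were not used here. Sequences and figures were handled with Python, pandas and matplotlib.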

Additional observations from a re-analysis of the deposited data

How the results depend on the processing

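The member values were a description under every setting. With the adjusted p as threshold 0 member probes were higher. With normexp background correction (1 member probe higher) and with the filter for probes above background on all 6 arrays (1 member probe higher), Fcna no longer passed, with a difference of 0.89 under normexp. Without any filter a Retn probe was called as well, although all its NEXN-WT values were set by the extraction software. The differences of Retnla and Fcna kept their sign. Leaving out one array at a time gave 2.19 to 3.44 for Retnla and 1.41 to 2.5 for Fcna, and 2 member probes called each time.

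Over all probes, 122 were called higher and 468 lower as reported. These counts became 30 and 146 with normexp, 1207 and 741 without a filter, 72 and 282 with the filter on all 6 arrays, 701 and 1215 with a 1.5-fold threshold, and 5 and 29 with the adjusted p. Without one array each they ranged from 90 to 233 and from 287 to 687. In the alternative activation list the count of genes called lower was 1 rather than 2 with the percentile over all probes, quantile normalization and normexp. It was also 1 with the study's normalized values, the methods' t-test and array weights, and 0 with the adjusted p. With the adjusted p the count called higher was also 0. Without one array each the list gave 0 to 1 higher and 1 to 2 lower. In the tissue macrophage list, 2 genes were called lower with the 1.5-fold threshold, and 0 to 2 without one array each. The 20 alternatives include the slide row block, in which the group difference rests on NEXN-S437E replicate 1 alone. Of the genes called in the lists, Ccl24 was called under 18 of 20 alternatives, Egr2 under 17, Socs1 under 12, Ass1 under 13, Cxcl10, Col1a1 and Col3a1 under 19, Plac8 under all 20, and Il1b under 11 of 19. Among lists with no call as reported, the 1.5-fold threshold called 4 resident macrophage genes higher and 2 interleukin-4 and interleukin-13 genes lower, and without a filter on dim probes Il10, Mmp9, Siglecf and Cidec were called higher. The T cell list had 1 gene called lower with normexp and 3 to 5 under the other alternatives. The cause of these shifts was not tested.

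Equal replicate numbers were not treated as pairs: deviations from the group means of same-numbered arrays correlated at -0.15, -0.03 and -0.18. Differently numbered arrays correlated at -0.07 to 0.18, and such values cannot show whether the animals were paired. With the replicate block, 598 probes were called rather than 590, and 2 member probes were called higher.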
